A study of Mus musculus with 12 samples.

Results

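The 10 genes described here make and load MHC class II molecules in the mouse: the class II chains H2-Aa, H2-Ab1 and H2-Eb1, the invariant chain Cd74, the transactivator Ciita, the peptide exchange factor genes H2-DMa and H2-DMb1, their modulators H2-Oa and H2-Ob, and the protease gene Ctss. They were chosen by role and found by matching gene identifiers to symbols. All 10 were present among the 50600 gene identifiers of the tables, and all 10 passed the filter on low counts in each comparison.

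The study sequenced polyA RNA of primary medullary thymic epithelial cells (mTECs) from the thymus of mice aged 6 to 8 weeks. The mTEC hi libraries came from cells sorted for high surface MHC class II and the mTEC lo libraries from cells with low surface MHC class II, with 6 libraries of each. Genotype was given by the strain B6.B6CB-Psmb11tm1Smta, as Psmb11-/- in Psmb11-deficient mice and as +/+ in WT mice. Psmb11 encodes a catalytic subunit of the thymoproteasome, a proteasome form made by cortical thymic epithelium. In each cell type 2 libraries were labelled Psmb11-deficient and 2 WT by every label. A further 2 libraries per cell type, 4 in all, had a title that named the opposite genotype to their source name and strain, and these were used in the cell type comparison but not in the genotype comparison. The labels do not say whether cells of several animals were pooled or which libraries share an animal, so the spread behind the p-values is that of libraries and may in part be technical.

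MHC class II molecules are pairs of an alpha and a beta chain that show peptides from the endosomal pathway to CD4+ T cells. The chains assemble with the invariant chain, which is then cut down by endosomal proteases until a short peptide remains in the groove. H2-DM exchanges that peptide for others, and H2-O binds H2-DM and restrains it. Ciita is the master coactivator of these genes and acts through factors bound to the X and Y boxes of their promoters. In the thymic medulla, class II molecules on mTECs present tissue antigens to CD4+ thymocytes. Surface MHC class II was the sorting mark, so the direction of the class II genes between the cell types is tied to the sort.

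The libraries held between 38791960 and 86793594 reads assigned to genes. Every member had at least 1003 reads in every library. Psmb11 was at 0.85 and 1.30 CPM (read counts scaled to the size of the library) in Psmb11-deficient mTEC hi, against 10.3 and 7.54 CPM in WT mTEC hi. Its level was 1.63 and 1.17 CPM in Psmb11-deficient mTEC lo, against 12.2 and 7.51 CPM in WT mTEC lo. The libraries titled KO with number 3 had 1.12 CPM in mTEC hi, against 1.26 CPM in mTEC lo, and those titled WT with number 1 had 8.15 and 7.10 CPM. In the labelled groups Psmb11 fell by 3.07 on the log2 scale in mTEC hi (SE 0.31, edgeR quasi-likelihood test, Benjamini-Hochberg adjusted p = 0.00457) and by 2.81 in mTEC lo (SE 0.29, adjusted p = 0.00814). The mTEC hi difference missed the threshold without Psmb11-deficient replicate 1 (adjusted p = 0.448) or without WT replicate 2 (adjusted p = 0.194), under the same edgeR test. Of the mTEC markers, Krt5, a basal keratin gene, had the highest mean CPM over both cell types together, with 717 ± 84.7 CPM in mTEC hi, against 4516 ± 422 CPM in mTEC lo (mean ± SD of 6 libraries each). Aire, the regulator of tissue antigen expression in mature mTECs, averaged 1979 ± 186 CPM in mTEC hi, against 17.6 ± 5.35 CPM in mTEC lo.

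Of the 10 genes, 7 lie in the class II region of chromosome 17, in the order H2-Oa, H2-DMa, H2-DMb1, H2-Ob, H2-Ab1, H2-Aa and H2-Eb1. On GRCm38 the run starts at H2-Oa (chr17:34092340-34095234) and ends at H2-Eb1 (chr17:34305867-34316674). Ciita (chr16:10480059-10528418), Ctss (chr3:95526786-95556403) and Cd74 lie on other chromosomes.

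RefSeq promoter windows on GRCm38.p6, from 250 bases before to 50 bases after a gene's start, were found for 7 of the 10 genes and not for H2-Ab1, Cd74 or Ciita. Of the 7, 5 held GNAAC, the core of the X box, followed 15 to 35 bases later on the gene's strand by TGATTGG, the Y box: H2-Aa, H2-Eb1, H2-DMb1, H2-Oa and H2-Ob. In the class II genes the pair was sought on the gene's strand only. Over all windows it was counted on the gene's strand and on either strand. The letters of the X and Y motifs cannot overlap at this spacing. The pair was present on the gene's strand in 0.25% of 32851 windows and on either strand in 0.569%. TGATTGG alone was present in 4.01% on the gene's strand and 7.82% on either strand. The stretches below are shown because they place the X and Y boxes of the alpha and beta chain genes beside those of a modulator gene, H2-Ob, and of H2-Eb2, a further beta chain gene outside the 10. They run 5′ to 3′ on the gene's strand, with the X core and the Y box in capitals. They lie at chr17:34287855-34287924 on the minus strand for H2-Aa, and on the plus strand at chr17:34305756-34305824 for H2-Eb1, chr17:34238798-34238864 for H2-Ob and chr17:34325523-34325591 for H2-Eb2.
H2-Aa: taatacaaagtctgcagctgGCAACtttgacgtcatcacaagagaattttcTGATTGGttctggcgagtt
H2-Eb1: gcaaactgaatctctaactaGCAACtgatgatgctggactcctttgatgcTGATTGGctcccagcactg
H2-Ob: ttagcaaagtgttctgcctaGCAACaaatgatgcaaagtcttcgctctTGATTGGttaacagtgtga
H2-Eb2: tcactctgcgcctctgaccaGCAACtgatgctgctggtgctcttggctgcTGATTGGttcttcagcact
The gap between the boxes was 26 bases in H2-Aa, H2-DMb1 and H2-Oa, 25 in H2-Eb1 and H2-Eb2, and 23 in H2-Ob. Counted from the RefSeq start, the Y box began 50 bases upstream in H2-Aa, 61 in H2-Eb1, 63 in H2-DMb1, 45 in H2-Oa, 59 in H2-Ob and 102 in H2-Eb2. The gene starts of GENCODE, used for the positions above, differ: there the stretch of H2-DMb1 lies within the gene and that of H2-Oa runs past its start. The window of H2-DMb2, another class II gene outside the 10, held TGATTGG but not the pair. Neither of the windows of H2-DMa nor that of Ctss held these letters. By GENCODE, H2-DMa starts at chr17:34119541, and its windows, which begin at 34122582 and 34125268, both lie within the gene. The window of H2-DMb2 also lies within its gene. The bases before the GENCODE starts of H2-DMa and H2-DMb2 were therefore not searched.

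In mTEC hi, 9 of the 10 genes were higher than in mTEC lo and none was lower; H2-DMa was not called. The rises spanned 1.46-fold for H2-DMb1 to 7.73-fold for H2-Ob. Of 23923 genes tested over the 12 libraries, 82.1% were called by the edgeR quasi-likelihood test at a Benjamini-Hochberg adjusted p below 0.05, with 44.2% higher and 38% lower. The median log2 fold change of the 10 genes was 1.26, beside 0.08 over all genes tested. In 9 of the 10 genes all 6 mTEC hi libraries lay above all 6 mTEC lo libraries in CPM, a pattern held by 38.5% of genes tested. Among all genes tested 33.5% were called and at least 2-fold higher, as were H2-Aa, Cd74, Ciita, H2-Oa, H2-Ob and Ctss, and 24.3% at least 4-fold higher, as were H2-Oa, H2-Ob and Ctss. Under scaling by library size alone the median of all genes moved by 0.285 to 0.37, the split of called genes was 12907 higher and 6347 lower in place of 10569 and 9080, and all 10 of the class II genes were called higher.

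**Figure D1:**
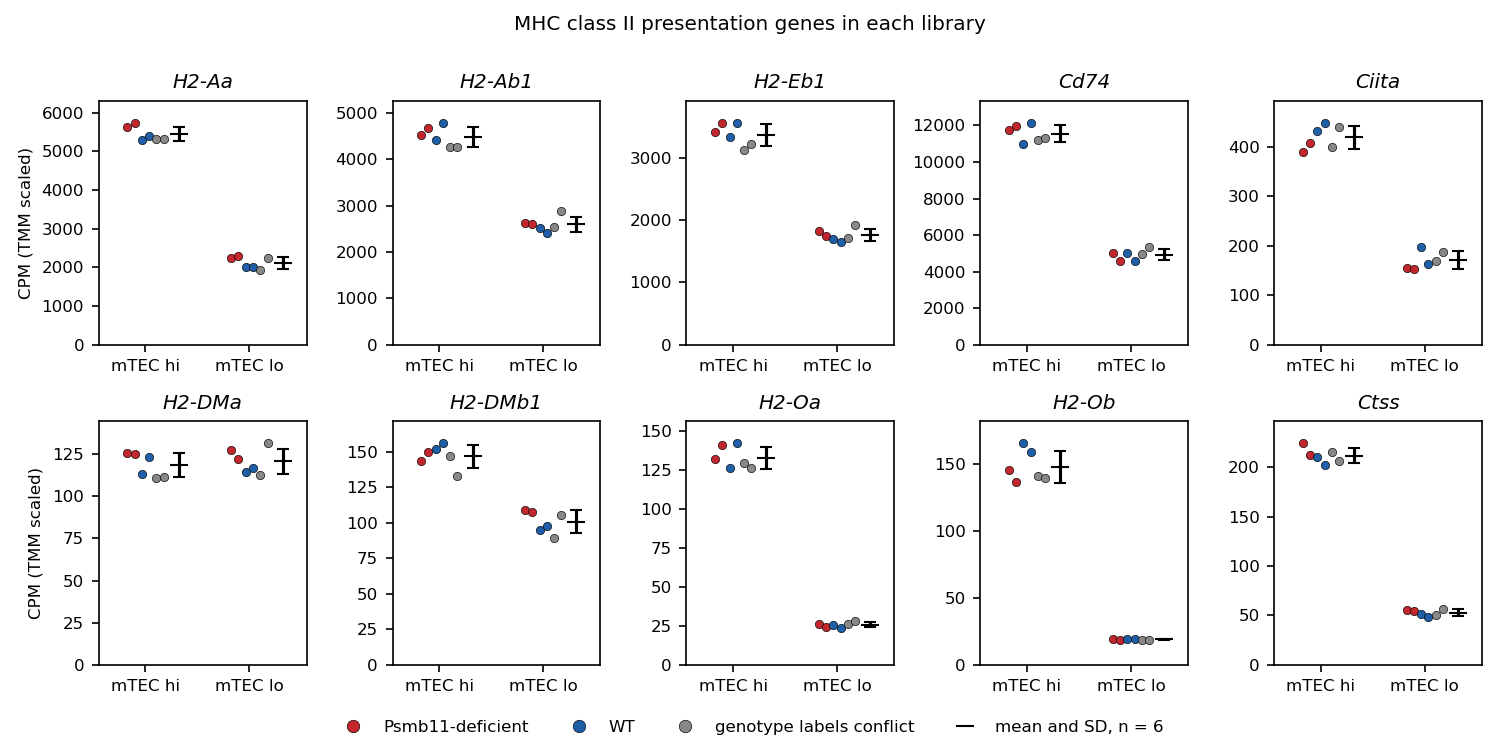
CPM of the 10 genes in each library (vertical axes, linear, from 0), mTEC hi left of mTEC lo; each dot is a library coloured by genotype, and the dash with bars is the mean and SD of 6 libraries. The groups do not overlap in 9 panels, while H2-DMa lies between 111 and 126 CPM in mTEC hi, against between 113 and 131 CPM in mTEC lo.

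The chains of the class II molecule rose by unequal amounts. H2-Aa, the alpha chain of I-A, had 5300 to 5729 CPM in mTEC hi with a median of 5362, and 1925 to 2293 CPM in mTEC lo with a median of 2121. Its level was 2.57-fold higher in mTEC hi (log2 fold change 1.36, SE 0.06, edgeR adjusted p = 4.92e-13). H2-Ab1, the beta chain that pairs with it, had 4260 to 4781 CPM in mTEC hi with a median of 4469, and 2401 to 2891 CPM in mTEC lo with a median of 2576. The rise of H2-Ab1 was 1.73-fold (log2 fold change 0.79, SE 0.06, edgeR adjusted p = 2.48e-09). For H2-Eb1, the beta chain of I-E, the range was 3133 to 3563 CPM in mTEC hi with a median of 3379, against 1651 to 1922 CPM in mTEC lo with a median of 1734. H2-Eb1 was 1.92-fold higher (log2 fold change 0.94, SE 0.06, edgeR adjusted p = 1.19e-10). An antisense gene, Gm20513, overlaps it; the counts were made without regard to strand, and reads that hit more than 1 gene were set apart as ambiguous.

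Cd74, the invariant chain that guides new class II molecules to endosomes, was the most abundant of the 10. It had 10964 to 12127 CPM in mTEC hi with a median of 11524, against 4587 to 5369 CPM in mTEC lo with a median of 4995. The rise was 2.34-fold (log2 fold change 1.23, SE 0.07, edgeR adjusted p = 1.36e-11). Ctss encodes cathepsin S, which makes the late cuts in the invariant chain in B cells and dendritic cells. Ctss had 202 to 224 CPM in mTEC hi with a median of 211, and 48.5 to 56.6 CPM in mTEC lo with a median of 53.1. It rose 4.01-fold (log2 fold change 2.002, SE 0.05, edgeR adjusted p = 1.4e-16).

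Ciita, which does not bind DNA itself and sets class II transcription through the factors at the X and Y boxes, rose as well. Its levels were 390 to 449 CPM in mTEC hi with a median of 420, and 154 to 199 CPM in mTEC lo with a median of 167. The fold change was 2.45 (log2 1.29, SE 0.05, edgeR adjusted p = 4.95e-13). Dexi, a gene on the other strand, overlaps Ciita.

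H2-DMa and H2-DMb1 form the H2-DM heterodimer, and they changed least of the chosen genes. H2-DMa had 111 to 126 CPM in mTEC hi with a median of 118, against 113 to 131 CPM in mTEC lo with a median of 119.5. These CPM ranges overlap almost fully, and the log2 fold change was -0.03 (SE 0.05, edgeR adjusted p = 0.549). Its sign depended on the scaling: it was 0.03 with RLE size factors and with DESeq2, 0.04 on RSEM counts and 0.25 with library size alone, where the adjusted p by edgeR was 6.47e-05. Relative to the median of all genes it lay at -0.12 under TMM, -0.12 under RLE, -0.11 under library size alone and 0.00 on RSEM counts. In TPM, the authors' length-corrected level, the H2-DMa ranges were apart, at 148 to 170 in mTEC hi and 122 to 140 in mTEC lo. The H2-DMa gene overlaps Brd2 and antisense transcripts. H2-DMb1 had 133 to 156 CPM in mTEC hi with a median of 149, and 89.2 to 109 CPM in mTEC lo with a median of 102. Its rise was 1.46-fold (log2 fold change 0.54, SE 0.05, edgeR adjusted p = 5.04e-08). It was not called when edgeR tested for a minimum change of 1.5-fold (adjusted p = 0.746). H2-DMb2, the near-identical neighbour of H2-DMb1, was not in the chosen set and rose more, by 2.65-fold (log2 fold change 1.40). The summed level of H2-DMb1 and H2-DMb2 was 1078 ± 36.2 TPM in mTEC hi and 377 ± 17.1 TPM in mTEC lo. The small change of H2-DMb1 therefore does not describe the pair.

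H2-Oa and H2-Ob, which form the H2-O heterodimer, changed most of the chosen genes. H2-Oa had 126 to 142 CPM in mTEC hi with a median of 131, and 23.8 to 28.3 CPM in mTEC lo with a median of 25.9, a 5.16-fold rise (log2 fold change 2.37, SE 0.05, edgeR adjusted p = 1.9e-16). H2-Ob had 137 to 166 CPM in mTEC hi with a median of 144, and 18.5 to 19.7 CPM in mTEC lo with a median of 19.1. The rise of H2-Ob was 7.73-fold (log2 fold change 2.95, SE 0.05, edgeR adjusted p = 4.35e-18). H2-Oa overlaps the antisense gene BC051537, and the estimated count of RSEM per read counted was 0.808 to 0.905 for it, higher than for the other 9 genes.

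The count was the same within each genotype. Within the Psmb11-deficient libraries 9 of the 10 genes were called higher in mTEC hi, with a median log2 fold change of 1.30, and 39.4% of 26642 genes were called higher. Within the WT libraries 9 were called higher, with a median of 1.24, beside 38.4% of genes. H2-DMa was the gene not called in either.

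Levels of different genes were compared per length, as TPM, the authors' length-corrected level. In mTEC hi the order was Cd74 (18559 ± 598 TPM, SD, n = 6), H2-Aa (8829 ± 163), H2-Ab1 (6835 ± 263), H2-Eb1 (5016 ± 156), H2-Oa (408 ± 10.3), Ctss (272 ± 9.59), H2-DMb1 (241 ± 7.54), H2-DMa (156 ± 8.45), H2-Ob (141 ± 9.89) and Ciita (129 ± 8.58). In that order H2-DMa and H2-Ob overlapped between libraries, as did H2-Ob and Ciita, and the other neighbours did not. In mTEC lo the order was Cd74 (6352 ± 490 TPM, SD, n = 6), H2-Ab1 (3140 ± 161), H2-Aa (2742 ± 88.2), H2-Eb1 (2125 ± 103), H2-DMb1 (134 ± 4.53), H2-DMa (130 ± 6.41), H2-Oa (63.0 ± 5.54), Ctss (53.9 ± 2.66), Ciita (41.8 ± 5.53) and H2-Ob (13.2 ± 2.17). There H2-DMb1 overlapped with H2-DMa, H2-Oa with Ctss, and Ctss with Ciita. The alpha chain H2-Aa stood above its partner H2-Ab1 in mTEC hi and below it in mTEC lo, without overlap in either. H2-Oa stood above H2-DMa and H2-DMb1 in mTEC hi and below both in mTEC lo. H2-DMb2, which is not among the 10, stood above H2-Oa in both, at 837 ± 33.5 TPM in mTEC hi and 243 ± 15.7 TPM in mTEC lo. Together the 10 genes took 4.06 ± 0.0983% of all TPM in mTEC hi and 1.48 ± 0.0746% in mTEC lo, of which Cd74 alone made 45.7% in mTEC hi and 42.9% in mTEC lo.

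Ratios within a library do not depend on its scaling. The ratio of H2-Oa to H2-DMa, the alpha chains of the modulator and of the exchange factor, was 2.36 to 2.74 in mTEC hi with a median of 2.66, and 0.424 to 0.541 in mTEC lo with a median of 0.494. The ratio of H2-Ob to H2-DMb1, the matching beta chains, was 0.528 to 0.653 in mTEC hi with a median of 0.584, and 0.0774 to 0.124 in mTEC lo with a median of 0.102. The modulator's share against the exchange factor was larger in all 6 mTEC hi libraries than in all 6 mTEC lo libraries, by 2.43 on the log2 scale for the alpha chains and 2.57 for the beta chains. With H2-DMb2 added to H2-DMb1, a ratio formed after seeing the data, H2-Ob stood at 0.123 to 0.149 in mTEC hi with a median of 0.129, and 0.0298 to 0.044 in mTEC lo with a median of 0.0354. That log2 difference was smaller, 1.90 (3.74-fold, against 5.95-fold over H2-DMb1 alone), with p = 0.00216 in the same exact permutation test. H2-Aa to H2-Ab1 was 1.19 to 1.34 in mTEC hi with a median of 1.31, and 0.809 to 0.951 in mTEC lo with a median of 0.88, a log2 difference of 0.56. Cd74 to H2-Ab1 was 2.63 to 2.79 in mTEC hi with a median of 2.72, and 1.88 to 2.14 in mTEC lo with a median of 2.03, a log2 difference of 0.43. H2-DMa to H2-Aa ran the other way, at 0.0166 to 0.0191 in mTEC hi with a median of 0.0175, and 0.0463 to 0.0484 in mTEC lo with a median of 0.0471, a log2 difference of -1.42. Ctss to Ctsl showed the widest gap of the 6. Ctsl encodes cathepsin L, which cuts the invariant chain in cortical thymic epithelium. The ratio was 1.31 to 1.78 in mTEC hi with a median of 1.58, and 0.0424 to 0.0514 in mTEC lo with a median of 0.046, a log2 difference of 5.08. In each of the 6 ratios the groups did not overlap. Each gave p = 0.00216 in an exact two-sided permutation test of the log2 ratio, with the same value after adjustment over the 6. That is the smallest p that 6 against 6 allows. The share of all gene pairs that separate in this way was not computed, and 82.1% of single genes were called between the cell types. The p-values therefore do not set these 6 ratios apart from other pairs. Per genotype, H2-Oa to H2-DMa was 2.36 and 2.67 in Psmb11-deficient mTEC hi, against 2.66 and 2.62 in WT mTEC hi, and these overlap.

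**Figure D2:**
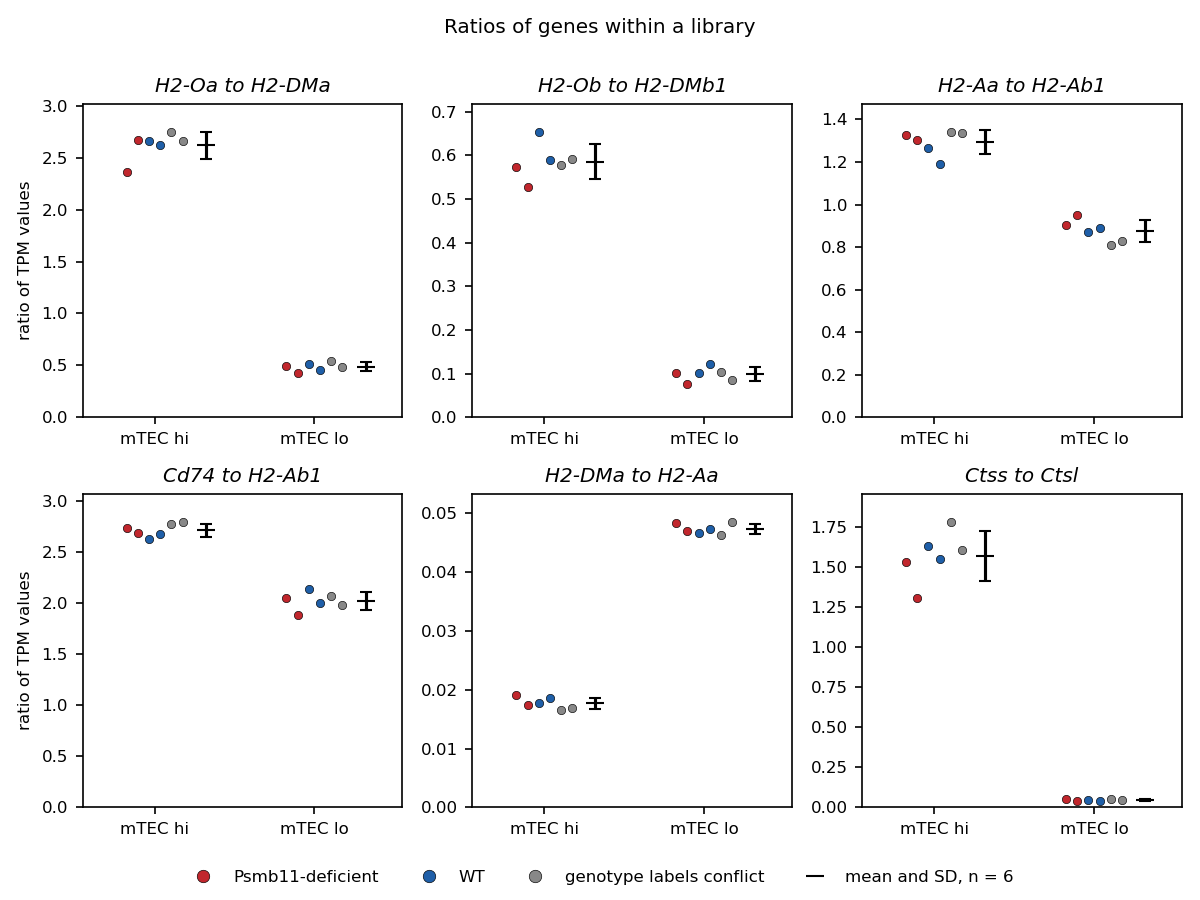
Ratio of the TPM of 2 genes in each library (vertical axes, linear, from 0), mTEC hi left of mTEC lo; dots are libraries coloured by genotype and the dash with bars is the mean and SD of 6 libraries. The groups are apart in all 6 panels, with H2-DMa to H2-Aa the panel in which mTEC hi is lower.

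The other class II genes of the region rose as well, 3 of 3, beside 44.2% of all genes tested. The median log2 fold change of these 3 was 3.90. H2-Eb2, a beta chain gene beside H2-Eb1, averaged 816 ± 17.4 CPM in mTEC hi, against 54.7 ± 3.80 CPM in mTEC lo (mean ± SD of 6 libraries each), 14.9-fold higher (log2 fold change 3.90, SE 0.06, edgeR adjusted p = 2.27e-18). The TPM ratio of H2-Eb2 to H2-Eb1 was 0.124 ± 0.00688 in mTEC hi and 0.0156 ± 0.000874 in mTEC lo. H2-Ea-ps, annotated as a polymorphic pseudogene, stands for the alpha chain of I-E, whose gene is inactive in C57BL/6 mice. It had 46 to 91 reads in mTEC hi libraries and 0 to 4 reads in mTEC lo libraries (log2 fold change 4.67, SE 0.37, edgeR adjusted p = 2.68e-09). H2-DMb2, the near-identical neighbour of H2-DMb1, averaged 510 ± 26.1 CPM in mTEC hi, against 193 ± 15.4 CPM in mTEC lo, 2.65-fold higher (log2 fold change 1.40, SE 0.06, edgeR adjusted p = 3.67e-13). The TPM ratio of H2-DMb2 to H2-DMb1, described after its values were seen, was 3.47 ± 0.151 in mTEC hi and 1.81 ± 0.124 in mTEC lo. The estimated count of RSEM per read counted was 0.571 to 0.645 for H2-DMb1 and 0.540 to 0.595 for H2-DMb2, against 0.443 to 0.459 for H2-Eb1. Ratios above these were found outside the pair, for H2-Oa, Tap2 (0.750 to 0.819) and Psmb8 (0.762 to 0.8297). The split of reads between near-identical genes is uncertain. Their summed level was 1078 ± 36.2 TPM in mTEC hi and 377 ± 17.1 TPM in mTEC lo.

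Under TMM scaling the genes that lie among the class II genes were not higher in mTEC hi. Of Brd2, Psmb9, Tap1, Psmb8 and Tap2, 4 were lower in mTEC hi, beside 38% of all genes tested, and Brd2 was not called. The 5 genes had a median log2 fold change of -0.59. On RSEM counts 3 were lower, and Psmb8 and Brd2 were not called. Under library size alone 3 were lower, and Psmb8 (0.12) and Brd2 (0.22) were called higher, both below that scaling's median of 0.37. Mean TPM was higher in mTEC hi for Brd2 (261.7 against 212.9) and Psmb8 (248.1 against 214.6), without overlap between libraries. It was lower for Psmb9, Tap1 and Tap2. The direction of Brd2 and Psmb8 therefore depended on the measure. Tap2 and Tap1 encode the transporter that supplies peptides to MHC class I. Tap2 averaged 112 ± 7.45 CPM in mTEC hi, against 189.7 ± 10.8 CPM in mTEC lo (log2 fold change -0.75, SE 0.05, edgeR adjusted p = 2.96e-10). Tap1 averaged 235 ± 10.5 CPM in mTEC hi, against 395 ± 19.8 CPM in mTEC lo (log2 fold change -0.75, SE 0.05, edgeR adjusted p = 1.01e-10). By position Psmb9, Tap1, Psmb8 and Tap2 lie between H2-DMb1, 60.7 kb from the start of H2-Oa, and H2-Ob, 146.6 kb from it, while Brd2 overlaps H2-DMa.

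**Figure D3:**
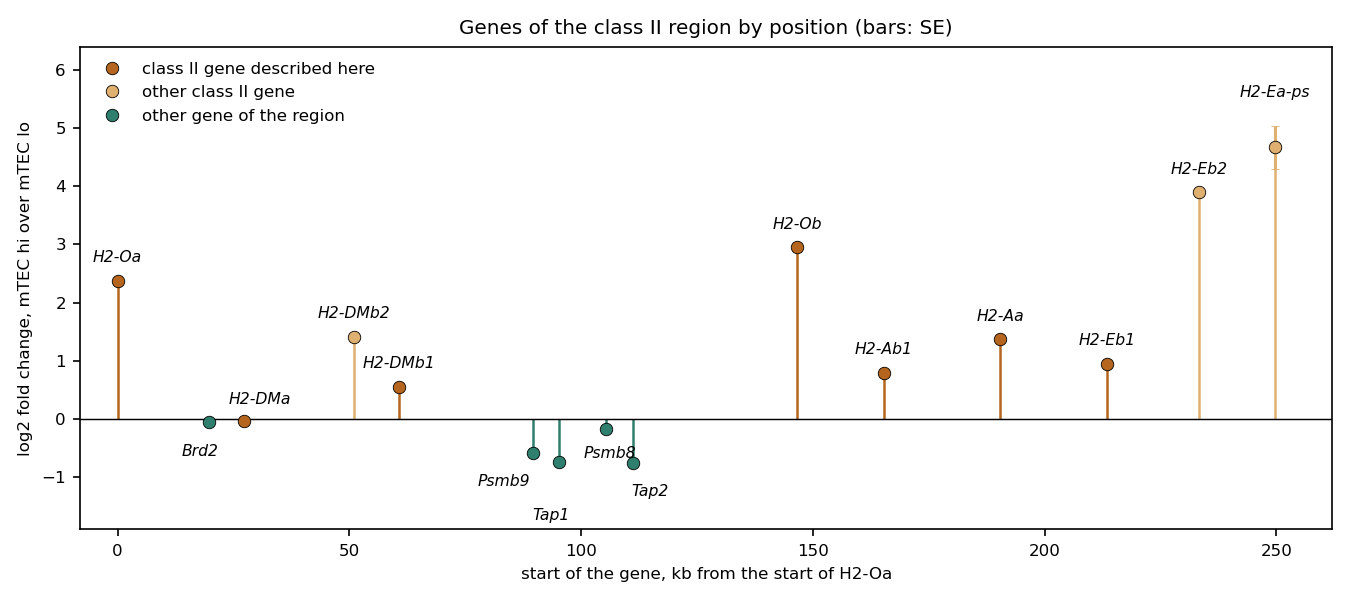
Log2 fold change of mTEC hi over mTEC lo (vertical axis; bars, SE) for genes of the class II region against the distance of their start from that of H2-Oa in kb (horizontal axis). Class II genes lie above 0 apart from H2-DMa at -0.03, and the 4 genes between 89.6 and 111 kb lie below 0; under library size alone H2-DMa, Brd2 and Psmb8 turn positive.

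The factors that bring Ciita to the promoters mostly ran the other way. Of the 7 genes of the X box and Y box factors, Rfx5 was higher in mTEC hi and 6 were lower, with a median log2 fold change of -0.45. Of all genes tested 38% were lower. Under RLE, DESeq2 and RSEM counts 5 were lower and Creb1 was not called. Under library size alone Creb1 turned to 0.16, with 2 higher, 4 lower and 1 not called. Besides Rfx5, mean TPM was higher in mTEC hi for Creb1 (31.7 against 23.9) and Nfya (39.2 against 37.5), and lower for Rfxap, Rfxank, Nfyb and Nfyc. Rfx5, the subunit of RFX that contacts the X box, averaged 72.1 ± 4.998 CPM in mTEC hi, against 36.1 ± 2.99 CPM in mTEC lo (log2 fold change 0.997, SE 0.05, edgeR adjusted p = 1.61e-12). Rfxap, another RFX subunit, averaged 13.0 ± 0.738 CPM in mTEC hi, against 29.1 ± 2.14 CPM in mTEC lo (log2 fold change -1.16, SE 0.06, edgeR adjusted p = 1.2e-11).

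Interferon gamma induces Ciita through its receptor, the Jak kinases and Irf1. Of 8 genes listed for this route, Ifngr2 was higher, 6 were lower and Irf2 was not called, with a median log2 fold change of -0.55. Over all genes tested 44.2% were higher and 38% lower. The lower ones include Socs1 (log2 fold change -0.91), an inhibitor of Jak signalling. Besides Ifngr2, mean TPM was higher in mTEC hi for Jak1 (119.7 against 107.4), Jak2 (43.3 against 39.2) and Irf2 (51.2 against 43.6). It was lower for the others on the list. Under RLE and DESeq2 5 were lower, and on RSEM counts 4 were lower. Under library size alone Jak1, Jak2 and Irf2 turned positive, with 3 genes higher and 4 lower. Ifngr1, the ligand-binding receptor chain, averaged 46.9 ± 2.16 CPM in mTEC hi, against 170.5 ± 5.20 CPM in mTEC lo (log2 fold change -1.86, SE 0.04, edgeR adjusted p = 1.18e-16).

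Genes of endosomal processing split. Of 8 genes, 3 were higher in mTEC hi and 5 were lower, with a median log2 fold change of -0.59. Over all genes tested the shares were 44.2% higher and 38% lower. Under library size alone 3 of the 8 were higher and 4 lower. The lower ones include Cst3 (log2 fold change -0.75), which encodes an inhibitor of cathepsins and not an enzyme. The higher ones were Ctsh, Ifi30 and Ctsz, of which Ifi30 and Ctsz were named after their values were seen. Ctsh, a lysosomal aminopeptidase, averaged 323 ± 16.1 CPM in mTEC hi, against 54.7 ± 5.51 CPM in mTEC lo (log2 fold change 2.56, SE 0.06, edgeR adjusted p = 8.58e-17). Ctsl averaged 204 ± 20.8 CPM in mTEC hi, against 1716 ± 134 CPM in mTEC lo (log2 fold change -3.08, SE 0.07, edgeR adjusted p = 8.47e-17). Ctss and Ctsl moved in opposite directions in the same libraries.

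The genes that set how long class II stays at the surface were 2 higher and 1 lower of 3. Over all genes tested the shares were 44.2% and 38%. Cd83, which protects class II from ubiquitination, averaged 35.4 ± 3.44 CPM in mTEC hi, against 3.36 ± 0.655 CPM in mTEC lo (log2 fold change 3.40, SE 0.09, edgeR adjusted p = 1.14e-15). March8, a ubiquitin ligase that removes class II from thymic epithelium, averaged 66.6 ± 2.09 CPM in mTEC hi, against 233 ± 5.86 CPM in mTEC lo (log2 fold change -1.81, SE 0.04, edgeR adjusted p = 1.85e-16). March1, the related ligase of B cells and dendritic cells, made the other rise, at 4.03 ± 0.582 CPM in mTEC hi, against 2.13 ± 0.475 CPM in mTEC lo.

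**Figure D4:**
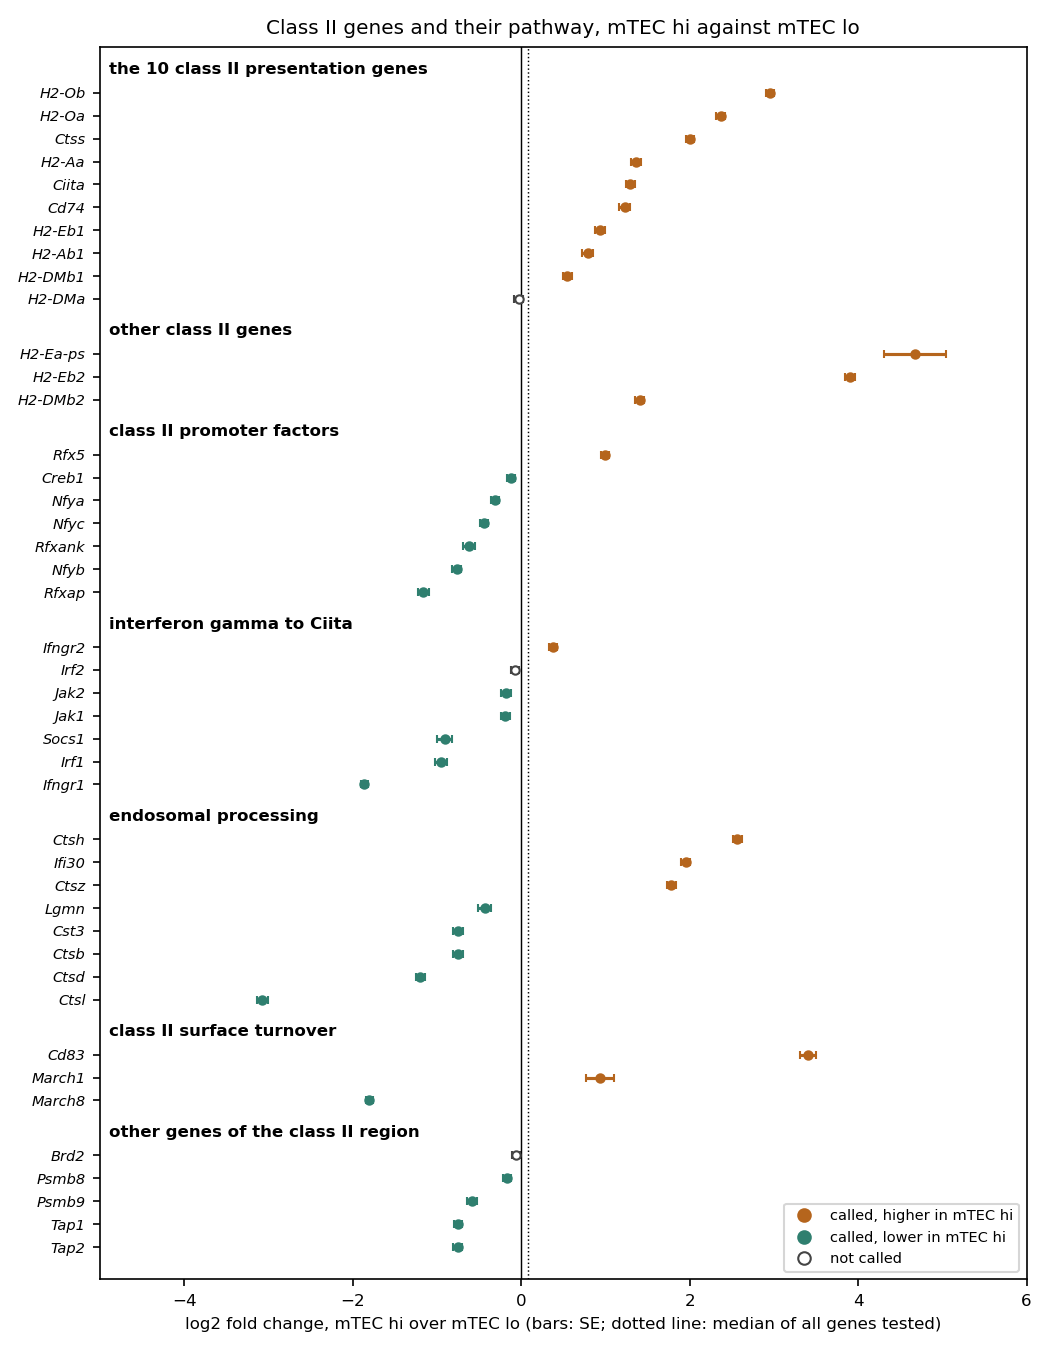
Log2 fold change of mTEC hi over mTEC lo (horizontal axis; bars, SE) for the 10 genes and 6 lists of related genes, named on the vertical axis (a gene not reported by name is not drawn); filled points were called at an adjusted p below 0.05 and open points were not, and the dotted line is the median of all genes tested, 0.08. The 10 genes run from -0.03 to 2.95, while the medians of the promoter factor, interferon gamma and endosomal lists lie at -0.45, -0.55 and -0.59.

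B cells, dendritic cells and macrophages also express class II genes, and their markers moved with the cell type. The counts below stand beside 44.2% of all genes tested called higher in mTEC hi and 38% called lower. All 8 of 8 B cell markers were higher in mTEC hi, and their summed level was 221 to 236 CPM in mTEC hi, against 49.3 to 62.4 CPM in mTEC lo. Fcer2a had the highest mean CPM of them over both cell types together, at 107 ± 4.70 CPM in mTEC hi, against 29.0 ± 2.96 CPM in mTEC lo. Blk changed most, at 14.6 ± 0.763 CPM in mTEC hi, against 0.487 ± 0.169 CPM in mTEC lo. Ms4a1 had 0 reads in 1 mTEC lo library. Of 11 dendritic cell and macrophage markers 10 were higher and Sirpa was lower, with a sum of 154 to 169 CPM in mTEC hi, against 86.8 to 102 CPM in mTEC lo. By the same mean Zbtb46 was the highest of these, at 56.4 ± 2.998 CPM in mTEC hi, against 28.5 ± 2.39 CPM in mTEC lo, and Flt3 changed most, at 12.7 ± 1.46 CPM in mTEC hi, against 0.327 ± 0.139 CPM in mTEC lo. Of 10 thymocyte markers 5 were higher and none lower (6 higher with RLE and 8 with library size alone), with a sum of 166 to 299 CPM in mTEC hi, against 45.2 to 115 CPM in mTEC lo. Tcf7 was the highest by that mean, at 109 ± 13.4 CPM in mTEC hi, against 21.3 ± 6.34 CPM in mTEC lo, and Ptcra changed most, at 1.29 ± 0.181 CPM in mTEC hi, against 0.153 ± 0.110 CPM in mTEC lo. Of 7 cortical epithelial markers 3 were higher and 3 lower; Ctsl was the highest by that mean, though not in mTEC hi. Ccl25 was the gene of largest rise, at 411 ± 27.6 CPM in mTEC hi, against 29.0 ± 4.9997 CPM in mTEC lo. Whether the marker reads came from such cells or from the mTECs themselves was not tested. The part of such cells in the class II levels was not tested either. In bulk samples fewer cells of a type and less RNA per cell cannot be told apart.

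Between genotypes the comparison asks whether loss of Psmb11 goes with a change in class II expression in medullary cells, and no class II gene was called in either cell type. In mTEC hi 0 of 10 were called by edgeR, beside 0.00375% of 26642 genes (1 gene, Psmb11), and 0 by DESeq2, with 1 at an unadjusted p below 0.05 beside 3.45% of genes. In mTEC lo 0 of 10 were called by edgeR, beside 0.015% of genes (4 genes, 1 to 323 when a library was left out), and 0 by DESeq2, with 1 at an unadjusted p below 0.05 beside 11.3%. The log2 fold changes of the 10 genes lay within 0.19 of 0 in mTEC hi and 0.23 in mTEC lo, with medians of 0.03 and 0.08. The farthest bound of a 95% interval from 0 was 0.36 in mTEC hi and 0.42 in mTEC lo.

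H2-Ob was the gene below that p in mTEC hi. It had 146 and 137 CPM in Psmb11-deficient mTEC hi, against 166 and 159 CPM in WT mTEC hi, so that these libraries did not overlap. The log2 fold change was -0.19 (SE 0.08, edgeR adjusted p = 1). The library titled KO with number 3 had 139.5 CPM and the one titled WT with number 1 had 141 CPM, both below the WT libraries.

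Ciita was the one in mTEC lo. It had 156 and 154 CPM in Psmb11-deficient mTEC lo, against 199 and 164 CPM in WT mTEC lo (log2 fold change -0.23, SE 0.09, edgeR adjusted p = 0.379). The libraries with conflicting labels had 187 CPM under the title KO and 169 CPM under the title WT, in the opposite order. In mTEC hi Ciita had 390 and 408 CPM in Psmb11-deficient libraries, against 432 and 449 CPM in WT libraries (log2 fold change -0.14, SE 0.09, edgeR adjusted p = 1).

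H2-Aa had 5629 and 5729 CPM in Psmb11-deficient mTEC hi, against 5300 and 5392 CPM in WT mTEC hi. In mTEC lo it had 2233 and 2293 CPM in Psmb11-deficient libraries, against 2010 and 2009 CPM in WT libraries. The log2 fold changes of H2-Aa were 0.09 (SE 0.10, edgeR adjusted p = 1) in mTEC hi and 0.16 (SE 0.10, edgeR adjusted p = 0.544) in mTEC lo. Counted over the 10 genes, both Psmb11-deficient libraries lay above both WT libraries for 3 in mTEC hi (H2-Aa, H2-DMa and Ctss), as for 18.5% of genes tested, and below for 3 (Ciita, H2-DMb1 and H2-Ob), as for 17.7%. In mTEC lo 6 were above (H2-Aa, H2-Ab1, H2-Eb1, H2-DMa, H2-DMb1 and Ctss), as for 18.6% of genes, and Ciita was below, as for 17.7%. The libraries with conflicting labels had 2244 CPM of H2-Aa under the title KO and 1925 CPM under the title WT in mTEC lo. With them grouped by title, 3 against 3, the same 6 genes stayed above in mTEC lo, as for 9.11% of genes, and all 10 genes overlapped in mTEC hi, where 4.88% of genes were above. With them grouped by source name, those 6 genes overlapped in mTEC lo. Psmb11 itself was lower in every Psmb11-deficient library than in every WT library by title, in both cell types. By source name the genotypes overlapped in Psmb11 in both cell types.

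No class II gene was called for a genotype difference that differs between the cell types: 0 of 10 were called in the interaction by edgeR, beside 0% of genes, and 0 by DESeq2, with none at an unadjusted p below 0.05. H2-DMb1 came nearest. It had 143 and 149.9 CPM in Psmb11-deficient mTEC hi, against 152 and 156 CPM in WT mTEC hi. In mTEC lo it had 109 and 108 CPM in Psmb11-deficient libraries, against 94.9 and 98.2 CPM in WT libraries. The order of the genotypes was opposite in the cell types, and the interaction was -0.23 on the log2 scale (SE 0.11, edgeR adjusted p = 1).

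The sum of the thymocyte markers was 299 and 179 CPM in Psmb11-deficient mTEC hi, against 168 and 166 CPM in WT mTEC hi. In mTEC lo the sum reached 115 and 76.9 CPM in Psmb11-deficient libraries, against 52.7 and 45.2 CPM in WT libraries. All 10 of 10 markers had a positive log2 fold change in both cell types, with medians of 1.07 in mTEC hi and 1.15 in mTEC lo, and none was called; 51.3% of genes tested were above 0 in mTEC hi and 47.6% in mTEC lo. In mTEC hi the sum of 1 Psmb11-deficient library, 299 CPM, stood apart from the other 3. The B cell sum was 234 and 236 CPM in Psmb11-deficient mTEC hi, against 227 and 221 CPM in WT mTEC hi. Their part in the class II values was not tested.

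**Figure D5:**
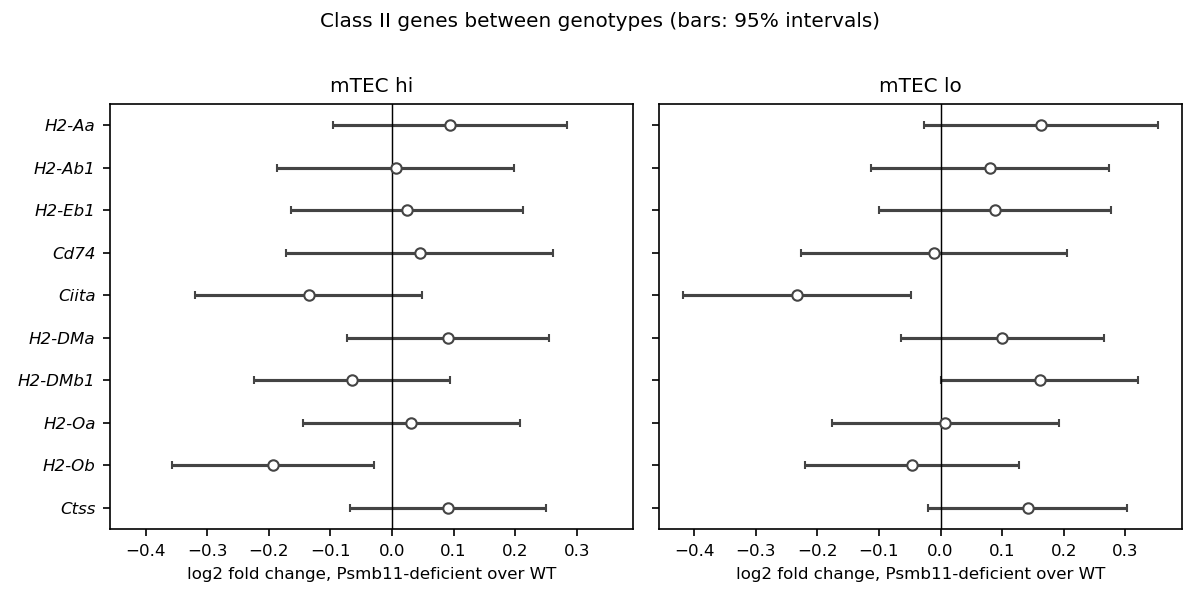
Log2 fold change of Psmb11-deficient over WT libraries (horizontal axes; bars, 95% intervals) for the 10 genes in mTEC hi (left) and mTEC lo (right), 2 libraries per genotype in each. Points lie within 0.23 of 0, and none was called.

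Over the 12 libraries the genes outside the lists whose log2 CPM ran closest to that of Ciita were Timp3 (Pearson r = 0.996), Actn3, Foxn1, Mfhas1 and Nfkb2, among 10960 protein-coding genes whose mean reached 10 CPM. The 12 points fall into the 2 cell types, so these values describe the step between them. Foxn1, a transcription factor of thymic epithelium, averaged 215 CPM in mTEC hi, against 105 CPM in mTEC lo. Nfkb2, which encodes the p100 precursor of the noncanonical NF-kB pathway, averaged 586 CPM in mTEC hi, against 282 CPM in mTEC lo. After each cell type's mean was subtracted the 5 closest were Zc3h4 (r = 0.958), Mid1, Tbc1d16, Bcr and Map3k4, and none of the first 5 was among them.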

How the data were processed

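RNA of 12 libraries was analysed from whole-number read counts per gene, which the authors deposited without normalisation and with or without regard to strand. The authors also deposited RSEM expected counts, TPM and FPKM values, of which FPKM was not used. The submitters' processing notes name CASAVA 1.8.2, STAR 2.5.1b, RSEM 1.2.28 and, although the gene identifiers are mouse ones, GRCh38; no annotation is named. Both strands held like shares of the reads, so the counts without regard to strand were used, in which reads that hit more than 1 gene are left out as ambiguous (3.57 to 4.16% of all reads in the deposited tables). Of 50600 identifiers 50376 were matched to symbols of GENCODE M21 by stable identifier, and 45737 had the same version; coordinates are GRCm38.

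Counts were filtered with filterByExpr (minimum 10, total 15), scaled by TMM and tested with the quasi-likelihood F test of edgeR 4.0.16 (R 4.3.3, limma 3.58.1) on all genes, with Benjamini-Hochberg adjustment at 0.05. For the cell types all 12 libraries were fitted with a term for genotype class (8 residual degrees of freedom), the genotypes within each cell type over 8 libraries (4 groups, 4 residual degrees of freedom). CPM values are TMM scaled, and 95% intervals are normal intervals from the SE. Ratios used TPM with 0.1 added, in exact permutation tests. Alternatives were RLE and library size scaling, DESeq2 1.42.0, rounded RSEM counts, no filter, a minimum change of 1.5-fold, genotype from the title or the source name, a replicate block, leaving out each library, and, added after seeing the data, the comparison within each genotype and the sum of H2-DMb1 and H2-DMb2. The steps were tested on simulated data. Members and lists were chosen with earlier results of these data known. Of each list the text names the 2 called genes of largest change (of marker lists, the gene of highest mean CPM and the most changed gene), and, of the genes most like Ciita, the 5 of highest correlation; others named beside small counts were chosen after their values were seen. Some genes of these lists are not reported here by name. H2-Ea, Marchf1 and Marchf8 were matched as H2-Ea-ps, March1 and March8. No 2 libraries agreed within sampling noise, the closest pair of a cell type having a chi-square of 7.77 per gene.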

Additional observations from a re-analysis of the deposited data

Results flagged for a closer look

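Over 36 groups of 6 libraries, the CPM of 12 class II genes and the 6 ratios in each cell type, 2 groups had a library whose gap to its nearest neighbour, as a share of the group's range, exceeded Dixon's 95% critical value. Chance gives such a gap in about 1 in 20 groups. H2-DMb2 had 461 CPM in the mTEC hi library titled KO with number 3, whose genotype labels conflict, while the other 5 mTEC hi libraries had 505 to 530 CPM. The ratio of H2-Oa to H2-DMa was 2.36 in Psmb11-deficient mTEC hi replicate 1 and 2.62 to 2.74 in the other 5 mTEC hi libraries. That library also had the highest sum of thymocyte markers, 299 CPM, and the part of this in the ratio was not tested.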

How the results depend on the processing

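Over 22 alternatives for the cell types, the 9 class II genes called higher in mTEC hi stayed called higher apart from H2-DMb1 against a minimum change of 1.5-fold, where 8 were called and all genes gave 12958 calls; library size alone called 10. H2-DMa turned positive with RLE (0.033) and DESeq2 (0.033), on RSEM counts (0.041), with library size alone (0.25), within WT libraries (0.0025), in the 8 libraries with agreeing labels (0.015), and, when 1 library was left out, ranged from -0.057 to 0.0062, positive without the mTEC lo library titled KO with number 3. All 6 ratio differences kept their direction and stayed called in the 16 alternatives run for each, and H2-Ob to H2-DMb1 also with H2-DMb2 added (1.90).

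Between genotypes 0 of 10 class II genes were called under every alternative run. The count of all genes called in mTEC hi was 3 with DESeq2 and on RSEM counts, 42 with no filter, 0 with genotype from the source name, and 0 to 2 with a library left out. In mTEC lo it was 9 with library size alone, 158 with DESeq2, 660 with no filter, 2 with the source name and 1 to 323 with a library left out, the highest without Psmb11-deficient replicate 2 of mTEC lo. For the interaction it was 9 with DESeq2, 141 with no filter, 2 on RSEM counts and 0 to 49 with a library left out. Whether title numbers pair the libraries was not settled. Deviations from the group means of mTEC hi and mTEC lo libraries of the same title correlated at 0.0092 to 0.117, all weakly positive. Of the 6 mTEC hi libraries, 3 correlated best with the mTEC lo library of their own title. The replicate block on title numbers gave 67 calls in mTEC lo and 4 in the interaction, and 19468 between cell types. Signs turned for values near 0. Cd74 in mTEC lo was 0.0054 with RLE and DESeq2, 0.0097 on RSEM counts, 0.035 by title and 0.033 with the replicate block, and -0.072 to 0.053 with a library left out. H2-Ab1 in mTEC hi was -0.020 on RSEM counts and -0.0044 by source name, and -0.048 to 0.063 with a library left out; in mTEC lo it was -0.0032 by source name. H2-Eb1 in mTEC hi was -0.0037 by source name and -0.021 to 0.074 with a library left out. H2-Oa in mTEC lo was -0.024 by source name and -0.045 to 0.064 with a library left out, in mTEC hi -0.049 to 0.12, and Cd74 in mTEC hi -0.025 to 0.12. The causes were not tested. With 2 libraries per genotype, the SE of the class II genes, 0.08 to 0.11, limits what can be seen.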
